A study of Rattus norvegicus with 3 samples.

Results

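The kidney of the spontaneously hypertensive rat (SHR) was compared with that of the Dahl salt-resistant rat (Dahl R), 1 sequenced library against 1. The comparison covered 10812 protein-coding records that had a locus of their own and a mean of at least 1 FPKM (read fragments scaled to transcript length and library size) over the 3 libraries of the series. They were 10812 of 22938 protein-coding records and of 33194 records of every kind. A further 3371 protein-coding records reached that mean but shared their locus string with another record, and 7153 had a locus of their own but a lower mean. At the edge of the minimum, Niacr1 had a mean of 0.999 FPKM and was left out.

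The series set out to find long non-coding RNAs of the rat, and its protein-coding records are used here. SHR, the inbred strain that becomes hypertensive on ordinary food, was sampled at an age of 55 days. Dahl R, selected for a blood pressure that does not climb on a high-salt diet, was sampled at 54 days, and Dahl salt-sensitive (Dahl S), whose values are given beside the pair, at 53 days. All animals shared a birth date, were weaned at 30 days and then ate a chow with 0.3% salt, so no group had been loaded with salt. Total kidney RNA was depleted of ribosomal RNA before sequencing. The labels give neither the sex nor the number of animals behind a library. With 1 library a strain there is no replicate error and no test: strain, animal and age cannot be told apart, and the folds describe these libraries.

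SHR and Dahl R differ at many loci, and crosses between hypertensive and normotensive strains have long been used to look for kidney genes that act on blood pressure. The kidney reabsorbs most filtered salt, sugar and amino acids in the proximal tubule, concentrates the urine in the loop of Henle and sets final sodium, potassium and acid excretion in the collecting duct. It also makes vasoactive molecules: renin and angiotensinogen of the angiotensin system, and the epoxides of arachidonic acid that P450 enzymes form and soluble epoxide hydrolase breaks down.

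Of the 10812 members, 253 (2.34%) differed at least 2-fold on the scale of log2 of FPKM + 1, which understates the difference of low genes. SHR was higher for 150 (1.39%) and lower for 103 (0.953%). The authors deposited a lower and an upper limit for each value, and for 222 of the 253 (2.05% of members) the limits of the libraries did not overlap. Whatever the size of the difference, the limits were apart for 368 of the 10812 members. The log2 ratio of SHR over Dahl R had a median of 0.04 and an SD of 0.38 across members, and 56.2% of members were above 0. At the extremes, 15 members were at least 4-fold higher and 13 at least 4-fold lower in SHR. Of the members with a mean between 1 and 5 FPKM 3.64% passed the 2-fold size, against 1.68% of those between 20 and 100 FPKM. Just past that size lay Bex2 with a log2 ratio of 1.01, and just short of it Gramd1b with -1.0.

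**Figure D1:**
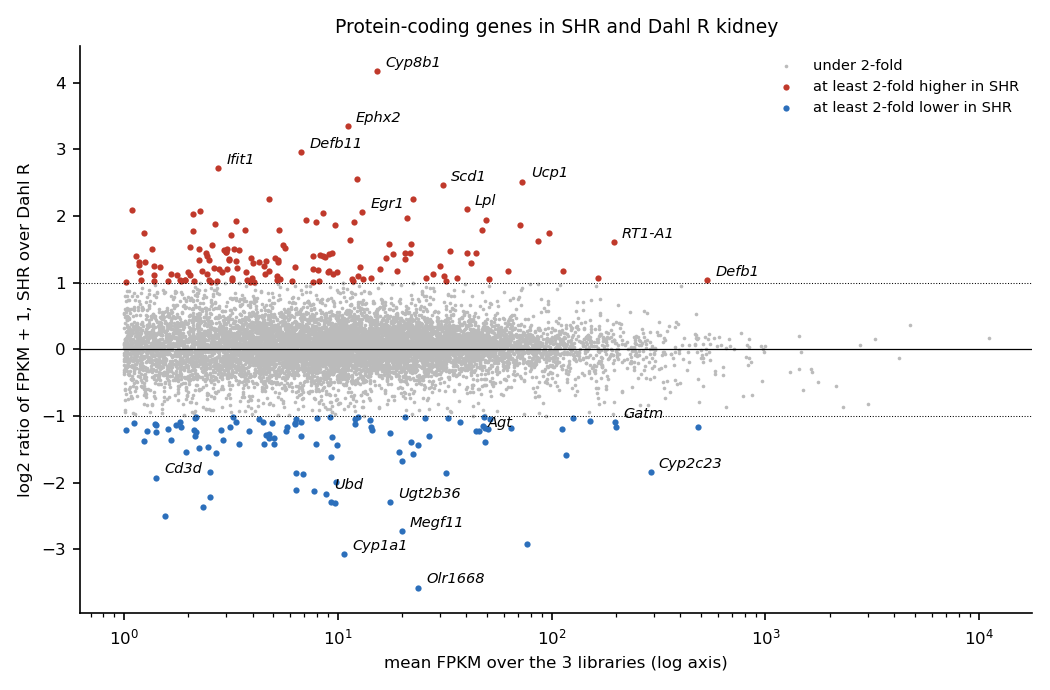
Log2 ratio of FPKM + 1 (SHR over Dahl R, y axis) against mean FPKM over the 3 libraries (x axis, log) for the 10812 members; red points are the 150 at least 2-fold higher in SHR, blue points the 103 at least 2-fold lower, and dotted lines mark 2-fold. Most members lie close to 0, and Cyp8b1 and Olr1668 are the outermost points.

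The label of the tissue was checked against defining markers. Every nephron segment was present in both libraries: the endocytic receptor Lrp2 of the proximal tubule was at 112 FPKM in Dahl R and 68.0 in SHR, the loop transporter Slc12a1 at 364 and 485, the distal convoluted tubule transporter Slc12a3 at 193 and 170, and the water channel Aqp2 of the collecting duct at 409 and 591. The endothelial gene Pecam1 was at 45.6 and 56.7 FPKM. None of these 5 was 2-fold apart, and the limits overlapped for each. Umod, the most abundant secreted protein of the loop, was listed at 4475 FPKM in Dahl R with limits of 0 to 17164, so its level there is poorly fixed, and at 5783 in SHR. Mitochondrially encoded records took 24.8% of the summed FPKM in Dahl R and 28.1% in SHR. Haemoglobin records took 0.684% and 0.363%, and the SHR library was about 1.27 times as deep as that of Dahl R, read from the steps of its low values.

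The upstream sequences of 3 genes that were much higher in SHR are shown because they belong to 3 of the groups described next: a sterol hydroxylase, the uncoupling protein of brown fat and an immediate early transcription factor. Each is the stretch of 250 bases before the annotated start, 5′ to 3′ on the gene's strand, from RefSeq on build GRCr8: Cyp8b1 at chr8:130457593-130457842 (minus strand), Ucp1 at chr19:41721422-41721671 (minus strand) and Egr1 at chr18:26736828-26737077 (plus strand). These are reference sequences, not those of SHR or Dahl R. Capitals mark matches, on either strand, to TATAAA or to the CArG box, the binding motif of serum response factor.
Cyp8b1: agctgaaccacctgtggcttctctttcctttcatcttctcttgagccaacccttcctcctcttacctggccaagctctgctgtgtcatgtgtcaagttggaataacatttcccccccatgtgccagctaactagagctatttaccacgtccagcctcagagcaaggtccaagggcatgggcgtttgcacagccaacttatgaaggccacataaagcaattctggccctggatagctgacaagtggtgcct
Ucp1: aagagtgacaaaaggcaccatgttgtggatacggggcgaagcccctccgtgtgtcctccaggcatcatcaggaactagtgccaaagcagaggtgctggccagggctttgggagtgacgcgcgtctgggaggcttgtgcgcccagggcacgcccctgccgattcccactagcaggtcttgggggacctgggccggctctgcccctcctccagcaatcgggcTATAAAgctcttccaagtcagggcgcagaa
Egr1: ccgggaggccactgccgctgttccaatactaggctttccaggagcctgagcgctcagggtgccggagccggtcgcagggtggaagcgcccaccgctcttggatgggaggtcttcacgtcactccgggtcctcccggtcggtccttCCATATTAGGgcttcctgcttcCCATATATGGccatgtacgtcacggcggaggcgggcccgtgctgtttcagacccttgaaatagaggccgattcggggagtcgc
The Cyp8b1 stretch matched neither. The Ucp1 stretch holds TATAAA 30 to 25 bases before the start, as do 12.9% of 33469 RefSeq rat promoters of that length at any position. The Egr1 stretch holds 2 CArG boxes that do not overlap, 105 to 96 and 83 to 74 bases before the start, and 1.5% of promoters hold at least 1. A match describes the letters of the window and was not tested as a site.

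Bile acid and epoxide enzymes held the largest differences in favour of SHR. Cyp8b1, the sterol hydroxylase that commits bile acid synthesis to cholic acid, was at 43.0 FPKM in SHR (limits 30.5 to 55.5), 1.45 in Dahl R (0.735 to 2.16) and 1.46 in Dahl S, a log2 ratio of SHR over Dahl R of 4.17. In the files, on a build that the sources used here do not name, the gene lies on chromosome 8 from 127018908 to 127020878. Both Dahl libraries were near the minimum, and only SHR was well above it. Acox2, the peroxisomal oxidase that shortens the bile acid side chain, was at 42.6 FPKM in SHR, 10.1 in Dahl R and 10.7 in Dahl S (log2 ratio 1.97, limits apart). These were the only 2 of 11 bile acid and oxysterol members that were 2-fold higher, none was 2-fold lower, and the median of the list was 0.09. The organic solute transporter Slc51a (named Ostalpha in the files) was at 14.1 FPKM in Dahl R and 6.72 in SHR, with limits apart and a log2 ratio of -0.97, just short of 2-fold.

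Ephx2, soluble epoxide hydrolase, which turns arachidonic acid epoxides into diols, was at 28.5 FPKM in SHR (20.9 to 36.0), 1.91 in Dahl R (1.13 to 2.69) and 3.02 in Dahl S, a log2 ratio of 3.34. Again both Dahl libraries were low and the limits of SHR lay far above them. Cyp2c23, the main epoxygenase of the rat kidney, went the other way, with 127 FPKM in SHR (86.4 to 168), 457 in Dahl R (278 to 636) and 287 in Dahl S (log2 ratio -1.84). So the enzyme that forms the epoxides was lowest in SHR, and the enzyme that removes them was highest there. Cyp2c11, a male-biased epoxygenase of rat liver, was at 0.949 FPKM in SHR and 5.98 in Dahl R (log2 ratio -1.84). The lipoxygenase Alox15 was at 4.07 FPKM in SHR, 11.1 in Dahl R and 37.7 in Dahl S (log2 ratio -1.25). Of 20 arachidonic acid members 1 was 2-fold higher and 3 were 2-fold lower, all 4 with limits apart, and the median was -0.04. The Cyp4a omega-hydroxylases Cyp4a2 (557 FPKM in Dahl R, 378 in SHR) and Cyp4a8 (432 and 312) were less than 2-fold apart. Reads of close Cyp2c genes may have been shared between them.

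Among enzymes that handle foreign compounds, Cyp1a1, the P450 switched on by the aryl hydrocarbon receptor, was at 2.09 FPKM in SHR (1.26 to 2.92), 25.1 in Dahl R (17.8 to 32.3) and 4.87 in Dahl S, a log2 ratio of -3.08. Dahl R was the high library here, and its limits overlapped with neither of the others. The receptor itself, Ahr, was at 10.1 FPKM in Dahl R and 4.89 in SHR (log2 ratio -0.91, limits apart). The glucuronosyltransferase Ugt2b36 was at 31.2 FPKM in Dahl R, 5.57 in SHR and 15.9 in Dahl S (log2 ratio -2.29). Its neighbour Ugt2b7 was at 2.04 and 0.388 FPKM (-1.13). The carboxylesterase Ces1e was at 14 FPKM in Dahl R and 2.44 in SHR (-2.13). Ugt2b36 and Ces1e stand outside the fixed xenobiotic list. Of the 22 members on that list Cyp1a1 and Ugt2b7 were 2-fold lower and none 2-fold higher, and the median was -0.09, so most of the group, Cyp2e1 and Cyp2d1 among them, did not share these differences. The Ugt2b and Ces1 genes are close copies of each other, and their reads may have been split. Of 29 members whose symbol begins with Cyp, 2 were 2-fold higher in SHR and 4 lower, beside 1.39% and 0.953% of all members.

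**Figure D2:**
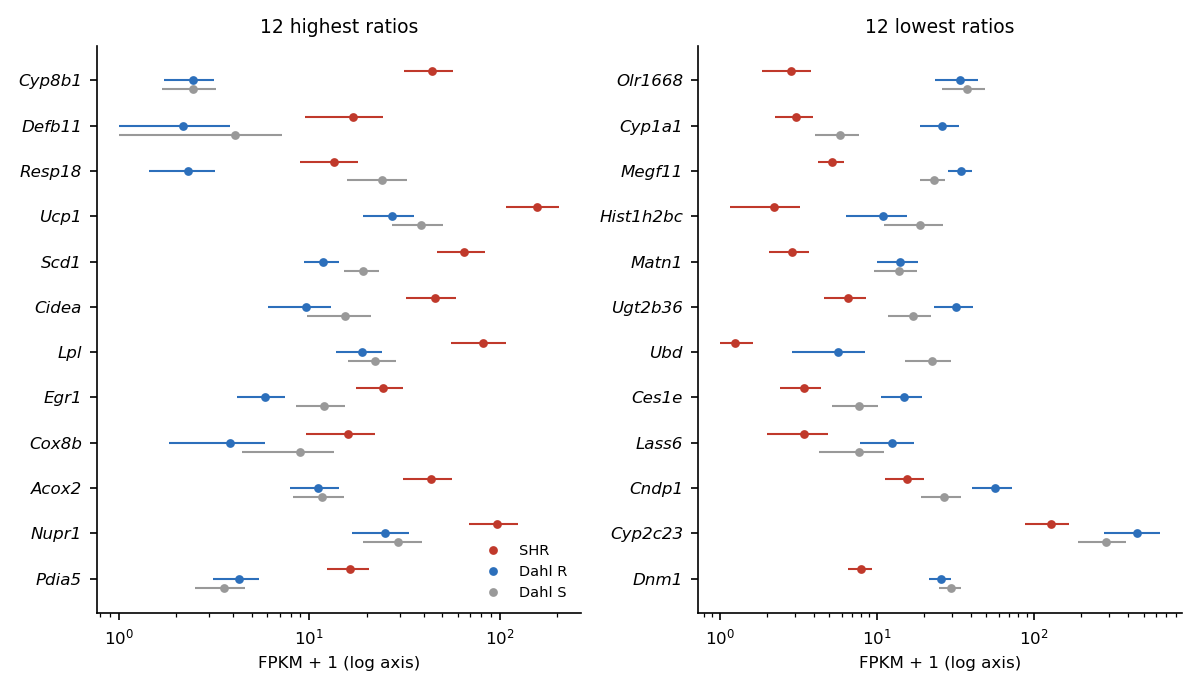
FPKM + 1 (x axis, log) with the deposited limits (bars) in SHR, Dahl R and Dahl S for the 12 genes with the highest and the 12 with the lowest ratio of SHR over Dahl R among members with a symbol, a mean of at least 5 FPKM and limits apart. Dahl S lies near Dahl R for Cyp8b1, Acox2, Olr1668 and Matn1, and nearer to SHR for Cyp1a1 and Resp18.

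Angiotensinogen was lower in SHR. Agt, the precursor from which renin cuts angiotensin, was at 25.3 FPKM in SHR (17.9 to 32.6), 60.4 in Dahl R (42.8 to 78.0) and 52.2 in Dahl S, a log2 ratio of -1.23 with limits apart. It was the only 1 of 13 members of the renin-angiotensin-aldosterone list that was 2-fold apart, and the list had a median of 0.03. Renin itself was at 34.3 FPKM in SHR and 24.7 in Dahl R (log2 ratio 0.46), the converting enzyme Ace at 3.74 and 4.56 (-0.23), and the receptor Agtr1a at 29.5 and 26.7 (0.14). The limits of the libraries overlapped for all 3. The peptidases at the end of the pathway went different ways and stayed under 2-fold: Anpep was at 470 FPKM in SHR and 242 in Dahl R, and Prcp at 3.49 and 6.89.

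Among 22 members of the nitric oxide, endothelin, natriuretic peptide and kinin list, the median log2 ratio was 0.27, and the limits of the libraries overlapped for every member. Limits apart were uncommon over all members too, at 368 of 10812. Guca2b, uroguanylin, a peptide that promotes salt excretion, was at 5.30 FPKM in SHR, 12 in Dahl R and 1.97 in Dahl S (log2 ratio -1.04). It was the only member 2-fold apart. Ddah1, which removes an inhibitor of nitric oxide synthase, was at 66.4 and 117 FPKM (-0.81), and Edn3, an endothelin, at 10.6 and 4.96 (0.96).

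Of 21 members that had been named as candidate genes of rat blood-pressure loci, Ephx2 and Resp18 were 2-fold higher in SHR, Agt was 2-fold lower and 18 were neither; the median was 0.12. Resp18, a protein of secretory granules, was at 12.5 FPKM in SHR (8.0 to 17.1), 1.31 in Dahl R (0.438 to 2.19) and 23.2 in Dahl S (log2 ratio 2.55). Dahl R was the low library, and SHR and Dahl S were both well above it. Gstm1, a glutathione transferase, was at 18.5 FPKM in SHR and 28.6 in Dahl R (-0.60, limits overlap). The medium-chain acyl-CoA synthetase Acsm3, also known as SA, was at 95.5 and 89.8 (0.09), and the cytoskeletal protein alpha-adducin, Add1, at 147 and 149 (-0.02). The fatty acid transporter Cd36 shared its locus and was no member; its record stood at 8.27 FPKM in SHR and 8.87 in Dahl R.

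Genes of adipocytes formed the list with the highest median, 1.21 over 14 members, against 0.04 over all members. Of the 14, 7 were 2-fold higher in SHR, none was 2-fold lower, and for 9 the limits were apart. Over all 10812 members the limits were apart for 368. Ucp1, the uncoupling protein that makes heat in brown fat, was at 155 FPKM in SHR (107 to 203), 26.3 in Dahl R (18.2 to 34.4) and 37.7 in Dahl S (log2 ratio 2.52). Cidea, a lipid droplet protein of brown fat, was at 44.5 FPKM in SHR, 8.58 in Dahl R and 14.4 in Dahl S (2.25). Lpl, the lipase that takes fatty acids from the blood, was at 80.9, 18 and 21.2 FPKM (2.11), and Cox8b, a cytochrome oxidase subunit of brown fat and muscle, at 14.9, 2.86 and 7.98 (2.04). In each of the 4, SHR was the high library and its limits lay above those of Dahl R. The other 3 were the fatty acid carrier Fabp4 (148 FPKM in SHR, 47.2 in Dahl R), the droplet coat protein Plin1 (18.4 and 5.24) and the serine protease adipsin, Cfd (32.1 and 11.1). Adipoq, the adipokine adiponectin, was at 28.7 and 14.2 FPKM with limits apart (0.97). Others differed little, with the coactivator Ppargc1a, which tubule cells also express, at 33.4 FPKM in SHR and 34.1 in Dahl R and the droplet protein Cidec at 61.2 and 58.5. Summed over all 18 matched genes of the list, the level was 831 FPKM in SHR and 356 in Dahl R, and none of the 18 was at 0 in either. In bulk tissue, more cells of a type and more RNA per cell cannot be told apart.

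Lipid enzymes higher in SHR included several that adipocytes also use. Scd1, the desaturase that makes oleic acid, was at 64.2 FPKM in SHR (45.9 to 82.5), 10.8 in Dahl R (8.36 to 13.3) and 18.2 in Dahl S (log2 ratio 2.46). Thrsp, a nuclear protein of lipogenic tissue, was at 169, 50.0 and 71.8 FPKM (1.74). They were the 2 of 15 fatty acid and triglyceride synthesis members past 2-fold; none was 2-fold lower and the median was 0.22. In the fatty acid oxidation list 4 of 35 members were 2-fold higher and none lower, with a median of 0.12. These were Ucp3 (3.90 FPKM in SHR, 0.436 in Dahl R), Pdk4, which spares glucose (14.9 and 4.90), the muscle and brown fat carnitine transferase Cpt1b (25.8 and 9.32) and the lipase inhibitor Angptl4 (8.02 and 3.45), all with limits apart. Angptl4 had a log2 ratio of 1.02, and fell short of 2-fold under each of 3 other scalings, 0.98 for both median-of-ratios and upper-quartile scaling among them. The liver and kidney form Cpt1a was at 56.2 FPKM in SHR and 44.3 in Dahl R, less than 2-fold apart. The adipocyte list had its median of 1.21 in the same pair of libraries, and its part in these lipid differences was not tested. Cholesterol enzymes lay below the median of all members: 6 of 18 were above 0 and 12 below, with a median of -0.18. None was 2-fold higher and 1 was 2-fold lower.

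**Figure D3:**
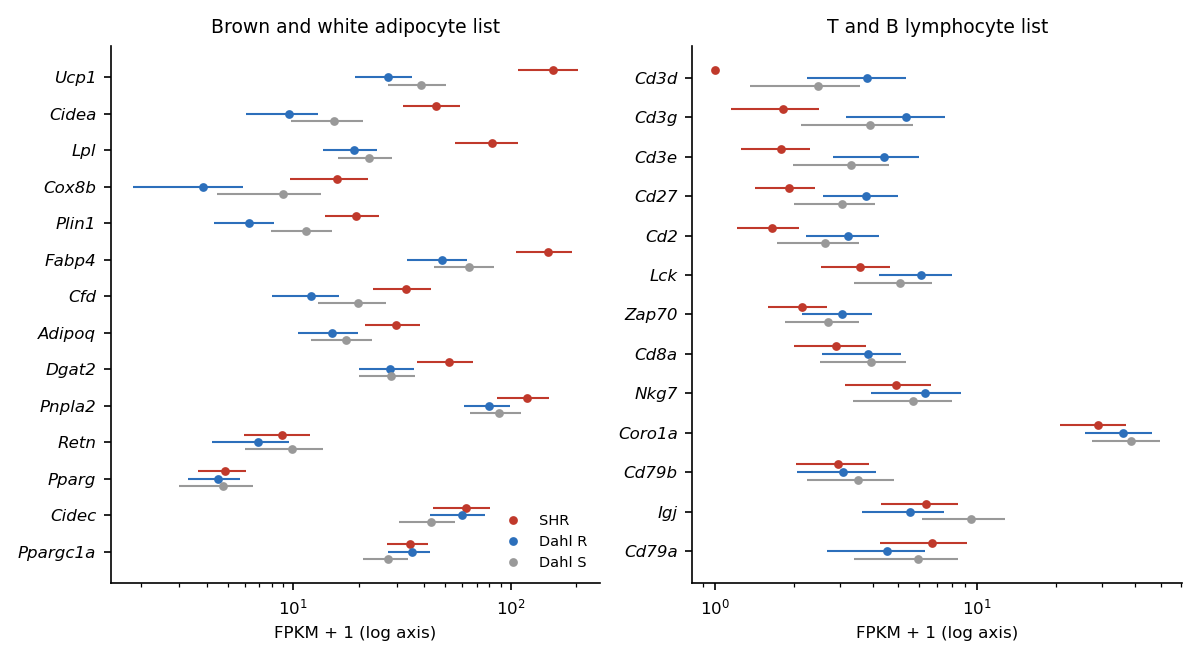
FPKM + 1 (x axis, log) with the deposited limits (bars) in SHR, Dahl R and Dahl S for the 14 adipocyte and 13 lymphocyte members. SHR has the highest level of 12 of 14 adipocyte genes, and Cd3d is listed at 0 in SHR.

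Lymphocyte genes had the lowest median of all lists with enough members, -0.52, with 11 of 13 members below 0. For 5 the limits were apart, beside 368 of 10812 over all members. In SHR 3 were 2-fold lower and none 2-fold higher. The 3 were the CD3 delta, gamma and epsilon chains of the T cell receptor complex. Cd3d was listed at 0 in SHR, at 2.79 FPKM in Dahl R (1.24 to 4.35) and at 1.47 in Dahl S. Cd3g was at 0.819 FPKM in SHR, 4.34 in Dahl R and 2.92 in Dahl S, and Cd3e at 0.785, 3.40 and 2.29. SHR was the lowest library for each, and Dahl R the highest. The 3 genes are neighbours on chromosome 8, within 34055 bases. Away from that locus the T cell genes Cd27 (0.915 FPKM in SHR, 2.78 in Dahl R) and Cd2 (0.657 and 2.22) also had limits apart, without reaching 2-fold. The B cell genes Cd79a (5.72 and 3.52) and Cd79b (1.95 and 2.09) were not lower beyond their limits. All 19 matched lymphocyte genes summed to 69.4 FPKM in SHR and 91.6 in Dahl R. Macrophage genes had 10 of 12 members below 0 and a median of -0.19, with none 2-fold apart and no limits apart. Of the red cell list, Hba-a2, an alpha-globin, was at 1319.8 FPKM in SHR and 2321 in Dahl R, and the part of blood content in the lymphocyte difference was not tested.

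Antigen-presenting RT1 genes, the rat major histocompatibility complex on chromosome 20, differed in both directions. RT1-A1, a class I heavy chain, was at 345 FPKM in SHR (217 to 473), 112 in Dahl R (79.1 to 146) and 129 in Dahl S (log2 ratio 1.61). RT1-CE10, another class I record, was at 22.1, 59.5 and 65.5 FPKM (-1.39). Among class II chains RT1-Db2 was at 31.7, 11.1 and 11.7 FPKM (1.43), and RT1-Bb at 50.0, 116 and 169 (-1.20). In all 4, SHR stood apart from both Dahl libraries, and the Dahl libraries were close to each other or, for RT1-Bb, Dahl S was the higher. The loading genes Tap1, Tap2 and Psmb9 were less than 2-fold apart, and the medians were -0.03 over 12 class I members and 0.11 over 10 class II members. RT1 genes are near copies that differ between strains, so reads mapped to one reference may be shared or lost. Olr1668, an olfactory receptor record with the lowest ratio of all members, also lies on chromosome 20, at 1.84 FPKM in SHR (0.851 to 2.83), 32.8 in Dahl R (22.7 to 43.0) and 36.5 in Dahl S (-3.57). Ubd, a ubiquitin-like modifier induced by interferon gamma, was at 0.262, 4.66 and 21.5 FPKM (-2.16). Chromosome 20 had the highest share of members 2-fold apart, 4.30% (12 of 279, 3 higher and 9 lower), and chromosome 2 the lowest of the nuclear chromosomes, 1.27%.

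On the fixed interferon list 1 gene stood alone, and Ubd, given above, stands outside that list. Ifit1, which binds foreign RNA, was at 7.72 FPKM in SHR (5.02 to 10.4), 0.327 in Dahl R (0.0187 to 0.635) and 0.244 in Dahl S (log2 ratio 2.72). The other 22 of 23 interferon members were less than 2-fold apart, with a median of 0.14 over all 23. Its relatives Ifit2 (7.71 FPKM in SHR, 5.66 in Dahl R) and Ifit3 (4.52 and 3.30) had overlapping limits, and Ifi27 was lower in SHR with limits apart (115 and 182, -0.66).

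Called members that were consecutive in position formed 9 runs of the same direction, with 20 members. Beside the Cd3 genes, the other run of 3 members was a set of beta-defensins, antimicrobial peptides of epithelia, across 162330 bases of chromosome 16. Defb11 was at 15.9 FPKM in SHR (8.50 to 23.4), 1.18 in Dahl R (0 to 2.84) and 3.08 in Dahl S (log2 ratio 2.96). Defb1, the abundant defensin of the distal nephron, was at 736, 359 and 511 FPKM (1.03), and under 2-fold with median-of-ratios (0.99) and upper-quartile scaling (0.98). Defb9 was listed at 0 in Dahl R and at 1.82 in SHR, with overlapping limits. SHR was the highest library for Defb11 and Defb1. The tight junction genes Cldn6 (19.7 FPKM in SHR, 4.68 in Dahl R, 4.90 in Dahl S) and Cldn9 (7.51, 1.45 and 2.06), next to each other on chromosome 10, were the only 2 of 14 claudin members 2-fold apart. The carnosine dipeptidase Cndp1 (14.6 FPKM in SHR, 55.7 in Dahl R, 25.7 in Dahl S) and its neighbour Cndp2 (290 and 652 in SHR and Dahl R) were both lower in SHR, the limits of Cndp2 overlapping. The ATP-gated channels P2rx4 (38.3 FPKM in SHR, 12.1 in Dahl R) and P2rx7 (4.05 and 0.989) were both higher.

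Along the nephron, segment lists shifted by small amounts in opposite directions. A list is described as shifted where its median lies at least 0.2 from the median of all members, and 16 of 44 lists with 5 or more members did so. Proximal tubule genes lay lower in SHR: 21 of 26 were below 0, with a median of -0.34. Just 1 was past 2-fold, and for it alone the limits were apart. That was Gatm, the first enzyme of creatine synthesis, at 113 FPKM in SHR (80.1 to 145), 241 in Dahl R (170 to 311) and 241 in Dahl S (-1.09). The organic anion transporter Slc22a6 was at 202 FPKM in SHR and 361 in Dahl R, and Anpep, at 470 and 242, was the member that lay highest. Summed over 30 matched genes, the proximal list held 6682 FPKM in SHR and 8417 in Dahl R, and none was at 0. The median over 12 thick ascending limb members was 0.22 and over 9 distal convoluted tubule members 0.00, neither of them shifted.

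Collecting duct genes lay higher. All 9 principal cell members were above 0, with a median of 0.50, though none reached 2-fold and no limits were apart. Among them the sodium channel subunits Scnn1a (52.1 FPKM in SHR, 36.6 in Dahl R) and Scnn1g (23.4 and 16.3) and the water channel Aqp3 (133 and 79.5) had overlapping limits. Of 16 intercalated cell members 15 were above 0, with a median of 0.67. For 4 the limits were apart, beside 368 of 10812 over all members. Slc26a4, pendrin, the chloride-bicarbonate exchanger of bicarbonate-secreting cells, was the only 1 past 2-fold, at 36.8 FPKM in SHR (26.0 to 47.6), 17.0 in Dahl R (12 to 22) and 24.3 in Dahl S (1.07). The ammonia channel Rhbg was at 114 and 57.6 FPKM (0.98), the anion exchanger Slc4a9 at 45.6 and 25.9 (0.79) and the water channel Aqp6 at 192 and 114 (0.74). The proton pump subunit Atp6v1b1, at 57.7 and 46.5, had overlapping limits. Summed over its 16 genes, the intercalated list held 1610.5 FPKM in SHR and 1159 in Dahl R, and none was at 0. Medullary osmolyte genes had a median of 0.31 over 10 members. Aldose reductase, Akr1b1, which makes sorbitol, was at 118 and 59.4 FPKM (0.97), and the taurine transporter Slc6a6 at 77.8 and 40.0 (0.94), both with limits apart and both short of 2-fold. Whether the libraries held cortex and medulla in like shares was not tested.

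**Figure D4:**
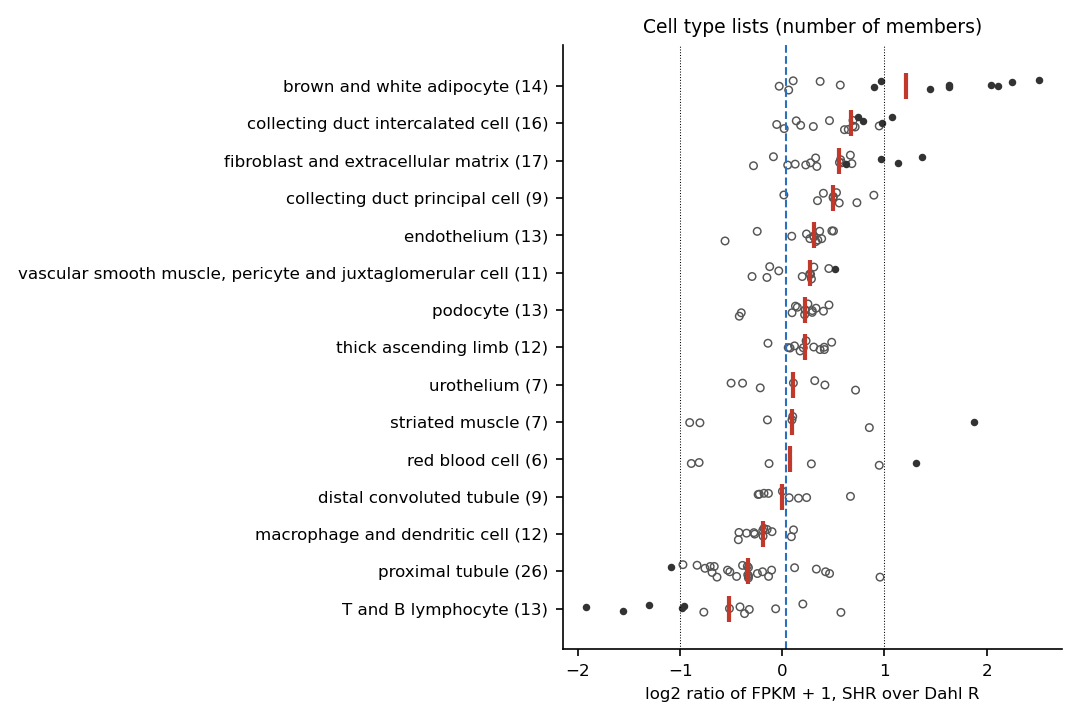
Log2 ratio of FPKM + 1 (SHR over Dahl R, x axis) for the members of 15 cell type lists; filled points have limits apart, open points overlap, red bars are list medians, the dashed line is the median of all members (0.04) and dotted lines mark 2-fold. Adipocyte and intercalated cell lists sit to the right and proximal tubule and lymphocyte lists to the left.

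Amino acid and one-carbon enzymes, most of them proximal tubule genes, had 27 of 41 members below 0 and a median of -0.27, beside the proximal list's -0.34. Only Gatm was past 2-fold. Gamt, the second enzyme of creatine synthesis, was at 105 FPKM in SHR and 203 in Dahl R (-0.94), and the glycine decarboxylase Gldc at 5.98 and 12.1 (-0.91). Both had limits apart. Among 34 glutathione and antioxidant members none was 2-fold apart, 24 were below 0 and the median was -0.15. The abundant plasma peroxidase Gpx3 was at 1433 FPKM in SHR and 2099 in Dahl R with overlapping limits (-0.55). Of 27 organic ion and drug transporters none was 2-fold apart, beside 2.34% of all members, and the median was -0.16. Hormone-handling genes included Cyp24a1, which breaks down active vitamin D, at 0.379 FPKM in SHR and 2.56 in Dahl R (-1.37). The calcium-regulating hormone stanniocalcin, Stc1, was at 22.1 and 8.86 FPKM (1.23). They were the only 2 of 14 vitamin D, phosphate and calcium members 2-fold apart, and the median was -0.20. Of 15 androgen-dependent and sex-biased kidney members Cyp2c11 and the oestradiol-forming Hsd17b1 (0.873 FPKM in SHR, 4.16 in Dahl R) were 2-fold lower, none was higher, and the median was -0.23.

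Potassium channels differed singly. Kcnk3, an acid-sensitive leak channel that brown adipocytes also express, was at 14.8 FPKM in SHR (11 to 18.5), 3.22 in Dahl R (2.06 to 4.38) and 5.85 in Dahl S (1.90). The inward rectifiers Kcnj15 (19.7 FPKM in SHR, 41.2 in Dahl R) and Kcnj12 (7.47 and 16.2) were 2-fold lower with limits apart. The other 14 of 17 potassium channel members were under 2-fold, among them the secretory channel Kcnj1 at 239 and 179, and the median was 0.16. Outside that list Kcng1 was also 2-fold lower, among 27 members whose symbol begins with Kcn (1 higher and 3 lower). Of 207 members whose symbol begins with Slc, the solute carriers, 5 were 2-fold higher in SHR and 3 lower, beside 1.39% and 0.953% of all members. None of 21 ABC transporters was 2-fold apart, where 2.34% of all members were.

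Matrix genes of fibroblasts lay higher in SHR than in Dahl R, with 15 of 17 members above 0 and a median of 0.56. For 4 the limits were apart, beside 368 of 10812 over all members. Lum, the collagen-binding proteoglycan lumican, was at 6.74 FPKM in SHR (4.39 to 9.09), 1.99 in Dahl R (1.05 to 2.93) and 6.60 in Dahl S (1.37), so Dahl R was the low library. Postn, periostin, was at 4.12, 1.33 and 1.89 FPKM (1.14). The main fibrillar collagen Col1a1 was at 122, 62.0 and 145 FPKM in SHR, Dahl R and Dahl S (0.97, limits of SHR and Dahl R apart). Summed over the 17 members, the list held 1672 FPKM in SHR, 1270 in Dahl R and 1766 in Dahl S. In this sum Dahl R was the lowest library and SHR was not the highest. Fibroblasts of fat also express these genes, and the part of the adipocyte difference in them was not tested. Endothelial genes had a median of 0.31 over 13 members and smooth muscle genes 0.27 over 11, none of either 2-fold apart. Of 15 tubular injury and repair members none was 2-fold apart, with a median of 0.03. Spp1, osteopontin, was at 370 FPKM in SHR, 352 in Dahl R and 929 in Dahl S, and Tff3, a mucosal repair peptide, at 1651 and 3002 in SHR and Dahl R (-0.86, limits apart).

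Egr1, an immediate early transcription factor, was at 23.3 FPKM in SHR (16.5 to 30.0), 4.84 in Dahl R (3.16 to 6.51) and 11 in Dahl S (2.05). It was the only 1 of 20 immediate early members past 2-fold. The list had 14 members above 0, where 56.2% of all members were, and a median of 0.30. The phosphatase Dusp1 was at 34.8 and 17.8 FPKM with limits apart (0.93), while Fos, at 1.91 and 1.22, and Nr4a1, at 6.40 and 6.31, had overlapping limits. The stress protein Nupr1 was at 95.9 FPKM in SHR, 24.1 in Dahl R and 28.2 in Dahl S (1.95), and Pdia5, a disulfide isomerase of the endoplasmic reticulum, at 15.5, 3.30 and 2.58 (1.94). The 16 heat shock and unfolded protein members had 1 past 2-fold, the glutathione-degrading Chac1 (2.30 and 0.512 FPKM, 1.12), and a median of -0.05. The clock list had none of 15 past 2-fold. Its output gene Dbp was at 208 FPKM in SHR, 140 in Dahl R and 41.9 in Dahl S (0.57, limits apart).

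Machinery shared by all cells differed little. None of 50 nuclear-encoded oxidative phosphorylation members was 2-fold apart, with log2 ratios from -0.44 to 0.31 and a median of 0.08. None of 32 cytosolic ribosomal protein members was either, with a median of 0.12, and none of 21 cell division members, with a median of 0.03. None of 32 members whose symbol begins with Psm, mostly proteasome subunits, and none of 27 beginning with Nduf was 2-fold apart. Over all members the share 2-fold apart was itself only 2.34%, so its absence from small groups says little about them.

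**Figure D5:**
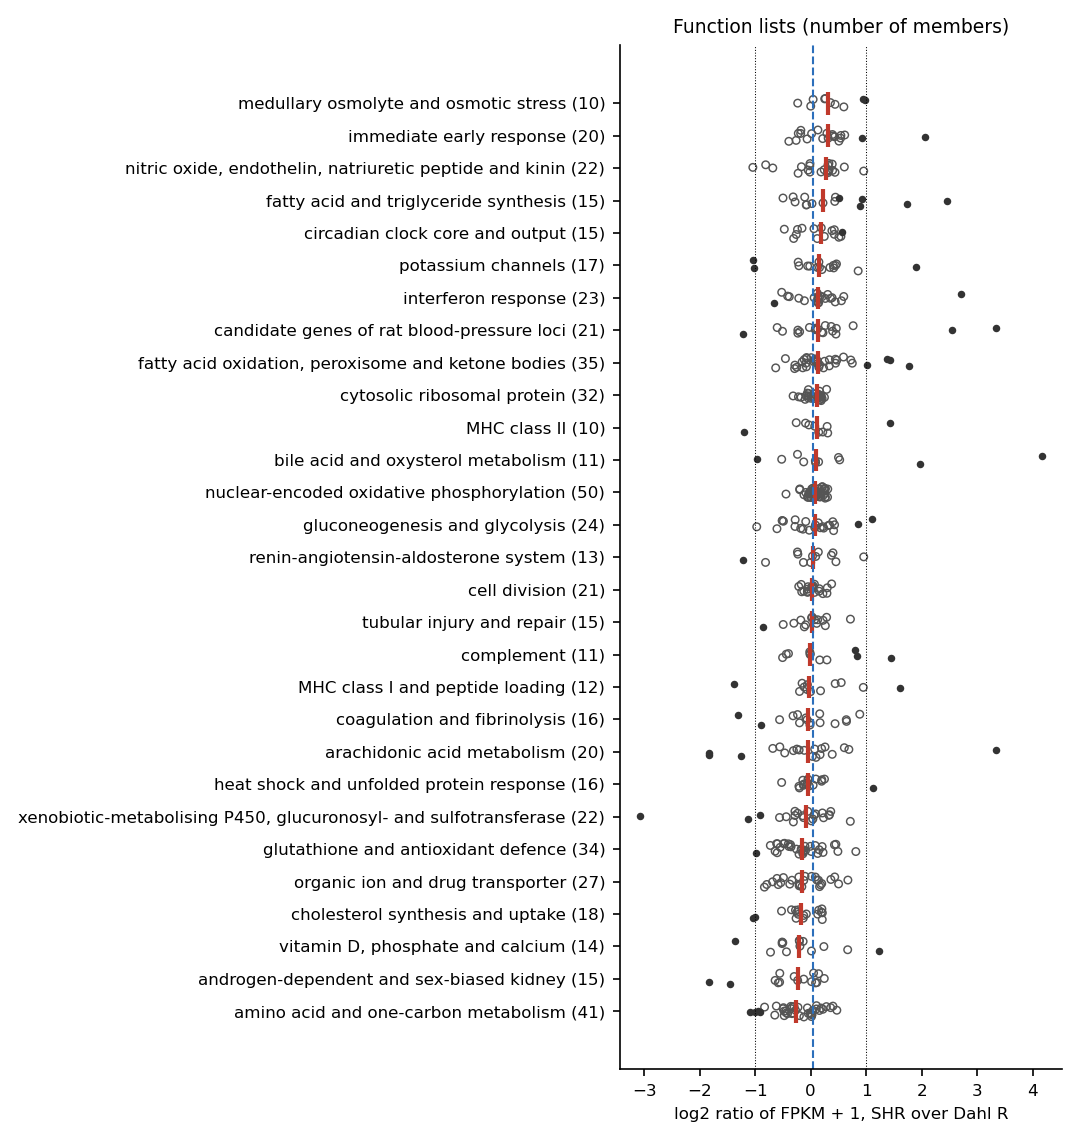
Log2 ratio of FPKM + 1 (SHR over Dahl R, x axis) for the members of 29 function lists, drawn as filled points where the limits are apart and open points where they overlap, with red bars for list medians, a dashed line for the median of all members (0.04) and dotted lines at 2-fold. Single genes lie far out in the bile acid, arachidonic acid, xenobiotic and interferon lists, and ribosomal and oxidative phosphorylation genes lie close together.

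Further genes with large ratios lay outside the groups described so far. Megf11, a cell-surface protein with epidermal growth factor repeats, was at 4.20 FPKM in SHR (3.23 to 5.17), 33.4 in Dahl R (27.6 to 39.2) and 22.1 in Dahl S (-2.73). The cartilage matrix protein Matn1 was at 1.88, 13.2 and 12.9 FPKM (-2.30), and the endocytic GTPase Dnm1 at 6.96, 24.6 and 28.7 (-1.68). The ceramide synthase Lass6 was at 2.44, 11.6 and 6.71 FPKM (-1.87). SHR was the lowest library for each. Hist1h2bc, a histone gene, was at 1.22 FPKM in SHR and 9.96 in Dahl R (-2.30). A record without a symbol, D3ZPQ1_RAT, which the files describe as like lymphocyte antigen 6 complex locus A, was picked after its values were seen: it was at 23.8 FPKM in SHR, 186 in Dahl R and 20.6 in Dahl S (-2.92), so Dahl R alone was high. The clotting factor prothrombin, F2, was at 4.24, 12 and 11.9 FPKM (-1.31), and was the only 1 of 16 coagulation members 2-fold apart. The muscle oxygen carrier myoglobin, Mb, was at 4.6 FPKM in SHR and 0.527 in Dahl R (1.88). No other of the 7 striated muscle members was 2-fold apart, and their median was 0.09. Igfbp1, a growth factor binding protein, was at 45.3 and 20.5 FPKM (1.10).

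From the lower end, 5 members were under 0.1 FPKM in one library and at least 2 FPKM in the other. Beside Cd3d these are records the files leave uncharacterised, and of them only D3ZUC6_RAT spans more than 300 bases. It was at 0.0681 FPKM in SHR, 3.94 in Dahl R (2.64 to 5.24) and 3.56 in Dahl S. SHR was the low library, and the limits of both Dahl libraries lay above it.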

How the data were processed

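Kidney RNA of 3 libraries, 1 a strain, was read from gene tables of FPKM that the authors deposited. The submitters' processing notes name Cufflinks 1.0.3 and TopHat 1.3.1 without giving each one's step. The tables also give lower and upper limits on each FPKM. The genome build, annotation, strand setting and confidence level are named by none of the sources used here, and total reads are unknown. FPKM of a gene moves with what other genes take of a library. One upper limit, that of Atr in Dahl R, is not a number.

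Members were protein-coding records with a locus string used once and a mean of at least 1 FPKM over the 3 libraries. The log2 ratio of FPKM + 1 was taken from the values as deposited, at least 2-fold (log2 of 1) was the size rule, and limits apart means that the deposited intervals do not overlap. Of 1153 listed gene names, 980 matched by name, 45 by another route and 128 not at all. The genes named are the 12 highest and 12 lowest ratios with limits apart among members that have a symbol, a locus of 300 bases or more and a mean of 5 FPKM or more, up to 4 past 2-fold of each list (otherwise its 2 most abundant), preset markers and blood-pressure genes, near-absent genes, and called neighbours. Others complete a count, or illustrate a list, and were picked after their values were seen. The members and the 45 lists were chosen with earlier results of these data known. Computation used Python 3.11.15, numpy 2.4.6, pandas 2.3.3 and matplotlib 3.10.9 and was checked on simulated data. A few genes the rule names are not reported here.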

Additional observations from a re-analysis of the deposited data

How the results depend on the processing

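Without replicates the limits of these values are the deposited intervals, which at the median member with a mean of at least 5 FPKM reach 29.5% from the value in SHR and 29.98% in Dahl R. No paired analysis was possible because each strain has 1 library. The size rule depends on the pseudocount: 473 members (274 higher, 199 lower) were 2-fold apart with 0.1, and 77 (43 and 34) with 5. A minimum mean of 5 FPKM left 140 (77 and 63). Keeping records that share a locus gave 394, 222 of them higher and 172 lower. Without a minimum, under 3 other scalings, with short loci left out, or with limits required to be apart, the count ran from 222 to 281. The share that was higher ran from 53.8% to 59.6% over the 10 alternatives planned, so more members were higher than lower in each. Leaving out the adipocyte, red cell and lymphocyte lists gave 242, and leaving out chromosome 20 gave 241; both were added after the data were seen. Of 112 genes followed, 30 fell short of 2-fold with a pseudocount of 5, the Cd3 genes, Alox15, Stc1, Slc26a4 and Cyp24a1 among them. Of the shifted lists, smooth muscle, macrophage, immediate early, nitric oxide and endothelin, and cholesterol genes were no longer shifted with that pseudocount. Without a minimum, macrophage, cholesterol and sex-biased genes were no longer shifted, and with shared loci kept, cholesterol genes were not. Keeping shared loci also took the median of the red cell list from 0.08 to -0.45 and that of fatty acid and triglyceride synthesis from 0.22 to 0.44, which made the latter shifted. The median of organic ion transporters differed by -0.199 from that of all members in the main setting, just short of the 0.2 rule. They became shifted under all 3 other scalings, a pseudocount of 0.1 and a minimum mean of 5 FPKM. Others became shifted as well: podocyte and glutathione genes with a pseudocount of 0.1, coagulation, glutathione and potassium channel genes with a minimum mean of 5 FPKM, and thick ascending limb, podocyte and fatty acid synthesis genes without a minimum.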

Other observations

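The 3371 protein-coding records that share a locus string with another record were not compared above. Of these, 72 were 2-fold higher in SHR and 69 lower (4.18%), 98 of them with limits apart. Endog, a mitochondrial nuclease, was listed at 12.5 FPKM in SHR, 42.8 in Dahl R and 42.1 in Dahl S (log2 ratio -1.70), and the sorting receptor Sorcs2 at 3.48, 15.5 and 14.6 (-1.88). The prostaglandin transporter Slco2a1 was listed at 43.7, 14.2 and 15.0 FPKM (1.56). For these 3 SHR stood apart from both Dahl libraries. Their loci hold other records, so how reads were split among them was not tested.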
